A study of Mus musculus with 6 samples.

Results

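The genes described here are 42 interferon-stimulated antiviral genes, taken by symbol from the 23841 genes of the count table. They were read in ILC1 and in conventional natural killer cells (cNK), both sorted from the kidneys of naive wild-type C57BL/6 mice. ILC1 are type 1 innate lymphoid cells, which live in tissue, and were sorted as NK1.1+ NKp46+ CD3- cells that carried CD49a and had low to intermediate CD49b. The cNK cells are circulating killer lymphocytes and had the same NK1.1+ NKp46+ CD3- gate with high CD49b. Each population had 3 libraries, called pools 1 to 3. No mouse was infected or treated, so all values are resting levels. The labels give neither the number of mice in a pool nor whether pools came from separate animals, and p-values therefore measure only the spread between these pools.

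Interferons are secreted proteins that warn cells of infection. Type I interferon binds Ifnar1 and Ifnar2 and acts through a transcription complex that includes Stat2 and Irf9 and binds a DNA element called ISRE, whereas the response to interferon gamma runs through an element called GAS. The genes that respond encode sensors of foreign RNA, enzymes that degrade viral RNA or block its translation, proteins that trap or starve virions, and GTPases that attack vacuoles holding microbes. Many of them are also transcribed at a low level without infection, and interferon gamma is itself a product of ILC1 and cNK cells.

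The promoters of these genes were examined for both elements, since they are what the genes are known to share. RefSeq promoters on GRCm38.p6, from 250 bases before the transcription start to 50 bases after it, were at hand for 31 of the 42 genes. The ISRE core was searched as GAAA, any 2 bases and GAAA again, on both strands, so that TTTC, any 2 bases and TTTC also counts. GAS was searched as TTCNNNGAA, which reads the same on both strands. The ISRE core was found in 19 of the 31 genes (61.29%), against 3.99% of the 27025 genes with a promoter in the RefSeq table. TTCNNNGAA was found in 7 of the 31 (22.58%), against 9.55% of all genes. Matches of the 2 patterns overlapped each other in 1 gene, Bst2. A match is a string of letters and does not show that a factor binds there. The windows below show called and uncalled genes with their matches in capitals, each reading 5′ to 3′ on the strand of the gene and ending before the transcription start.
Igtp (chr11:58199499-58199543, plus strand): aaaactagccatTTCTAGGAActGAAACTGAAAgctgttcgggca
Oas1a (chr5:120907526-120907635, minus strand): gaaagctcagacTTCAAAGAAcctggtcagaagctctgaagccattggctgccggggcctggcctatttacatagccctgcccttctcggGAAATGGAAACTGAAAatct
Irgm1 (chr11:48871423-48871462, minus strand): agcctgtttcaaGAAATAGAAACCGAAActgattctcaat
Ifit1bl1 (chr19:34602051-34602084, minus strand): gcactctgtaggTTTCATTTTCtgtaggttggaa
Isg20 (chr7:78913339-78913371, plus strand): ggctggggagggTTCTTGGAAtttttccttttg
Gbp2 (chr3:142620592-142620625, plus strand): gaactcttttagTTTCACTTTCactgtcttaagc
Gbp3 (chr3:142559987-142560026, plus strand): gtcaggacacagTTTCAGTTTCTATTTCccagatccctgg
Isg15 (chr4:156200863-156200908, minus strand): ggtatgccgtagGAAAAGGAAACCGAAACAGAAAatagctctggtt

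Both patterns were found in 4 genes. Igtp and Oas1a have the lowest adjusted p below, whereas Bst2 and Eif2ak2 were called by neither edgeR nor DESeq2. Isg20 holds TTCNNNGAA without the ISRE core. Gbp3, the gene that went furthest toward cNK, holds a pair of overlapping ISRE cores, and Isg15 holds 3. The median log2 fold change (ILC1 over cNK) was 0.91 over the 19 genes with the ISRE core and 0.91 over the 12 without it, with 4 and 3 genes called. Oasl1 and Herc6, both called, held neither pattern in this window.

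Library totals ran from 22633440 to 28327265 counts, and a single count equalled 0.0342 to 0.0454 CPM (the TMM-scaled unit of level used below, a gene's share of all counts). The 42 genes together took up 0.172, 0.161 and 0.138% of the counts in ILC1 pools 1 to 3 and 0.0991, 0.0803 and 0.0832% in cNK pools 1 to 3. The gates were checked by their markers, with Itga1 (CD49a), Cxcr6 and Zfp683 called higher in ILC1 and Itga2 (CD49b) and Eomes called higher in cNK. Some measures moved with the populations. A list of 25 myeloid cell markers had 8 called higher in ILC1 by edgeR and 0 in cNK, against 4.07% and 1.69% of all genes. Among the 8 were Lyz2, Flt3, Clec9a and Mpeg1. DESeq2 called 10 of the 25 higher in ILC1 and 1 in cNK, against 5.73% and 3.37%. The 1 was Cx3cr1 (DESeq2 log2 fold change -2.29, adjusted p = 0.00105). The macrophage genes C1qa, C1qb and C1qc lay close to equal, with edgeR log2 fold changes of -0.013, 0.10 and 0.15. Fcer1g, the most abundant of the list in cNK, went toward cNK without a call (-0.58). That list took up 0.680 to 1.21% of counts in ILC1 and 0.331 to 0.353% in cNK, and none of its genes was at 0 in any library. Fcer1g alone stood at 1977, 2423 and 2285 CPM in cNK pools 1 to 3 and at 1225, 1946 and 1316 CPM in ILC1. The summed share therefore does not give the difference in the called markers alone. Neither does the covariate made from it below. B cell markers took up 0.0582 to 0.0745% in ILC1 and 0.0136 to 0.0198% in cNK. T cell markers took up 0.0123 to 0.0160% and 0.00792 to 0.0103%, with 1 gene, Cd3g, called higher in ILC1, 5.63-fold. Of the 10 T cell markers, 7 had a positive log2 fold change. The other 3, Cd3d, Trac and Lef1, went toward cNK without a call (-0.71, -0.47 and -0.45). Kidney epithelial markers took up 0.106 to 0.472% and 0.191 to 0.719%. Mitochondrial genes took up 1.38 to 6.53% in ILC1 and 3.15 to 12.7% in cNK. In sorted bulk samples, fewer cells of a type and less RNA per cell cannot be told apart.

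Kidney ILC1 carried more of these transcripts than cNK for most of the genes, by a modest fold. Of the 42, 41 passed the filter on low counts, and Oas2 did not. At a Benjamini-Hochberg adjusted p under 0.05 in edgeR, 8 of the 41 were higher in ILC1 (19.5%), against 4.07% of all 16144 genes tested, and 0 were higher in cNK, against 1.69% of all genes. The 8 were Igtp, Oas1a, Isg20, Irgm1, Ifit1bl1, Oasl1, Herc6 and Iigp1, with folds from 1.85 to 3.07. At an unadjusted edgeR p under 0.05 the counts were 21 and 1, against 11.4% and 6.63% of all genes. DESeq2 called 17 of 42 (40.5%) higher in ILC1, including all 8 of edgeR, and 0 higher in cNK, against 5.73% and 3.37% of the genes it tested.

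The log2 fold change was positive for 38 of the 41 genes (92.7%), against 50.8% of all genes tested, and its median was 0.86, against 0.0096 over all genes. Without the filter, over all 42 genes, 39 were positive, the median was 0.87 and 9 were called higher in ILC1, against 642 of 23841 genes. All 3 ILC1 libraries lay above all 3 cNK libraries for 22 of the 41 genes (53.7%), against 15% of all genes, and the reverse held for 2, Gbp3 and Usp18, against 9.06%. For Usp18 the nearest libraries differed by less than a single count. The count of calls depended on single libraries. Leaving out ILC1 pool 1, 2 or 3 gave 3, 1 and 10 genes higher in ILC1, and leaving out cNK pool 1, 2 or 3 gave 2, 3 and 0. Over all genes the same fits called 451, 432 and 695, and 388, 336 and 214, higher in ILC1, against 657 with all 6 libraries. With the share of myeloid markers as a covariate 0 of the 41 genes were called. In that fit 18 of them were higher in ILC1 at an unadjusted edgeR p under 0.05, and their median log2 fold change was 0.98. Over all genes, those called higher in ILC1 fell from 657 to 158, and those called higher in cNK from 273 to 240. The share did not overlap between the populations, so with 6 libraries this fit cannot fully separate it from population.

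**Figure D1:**
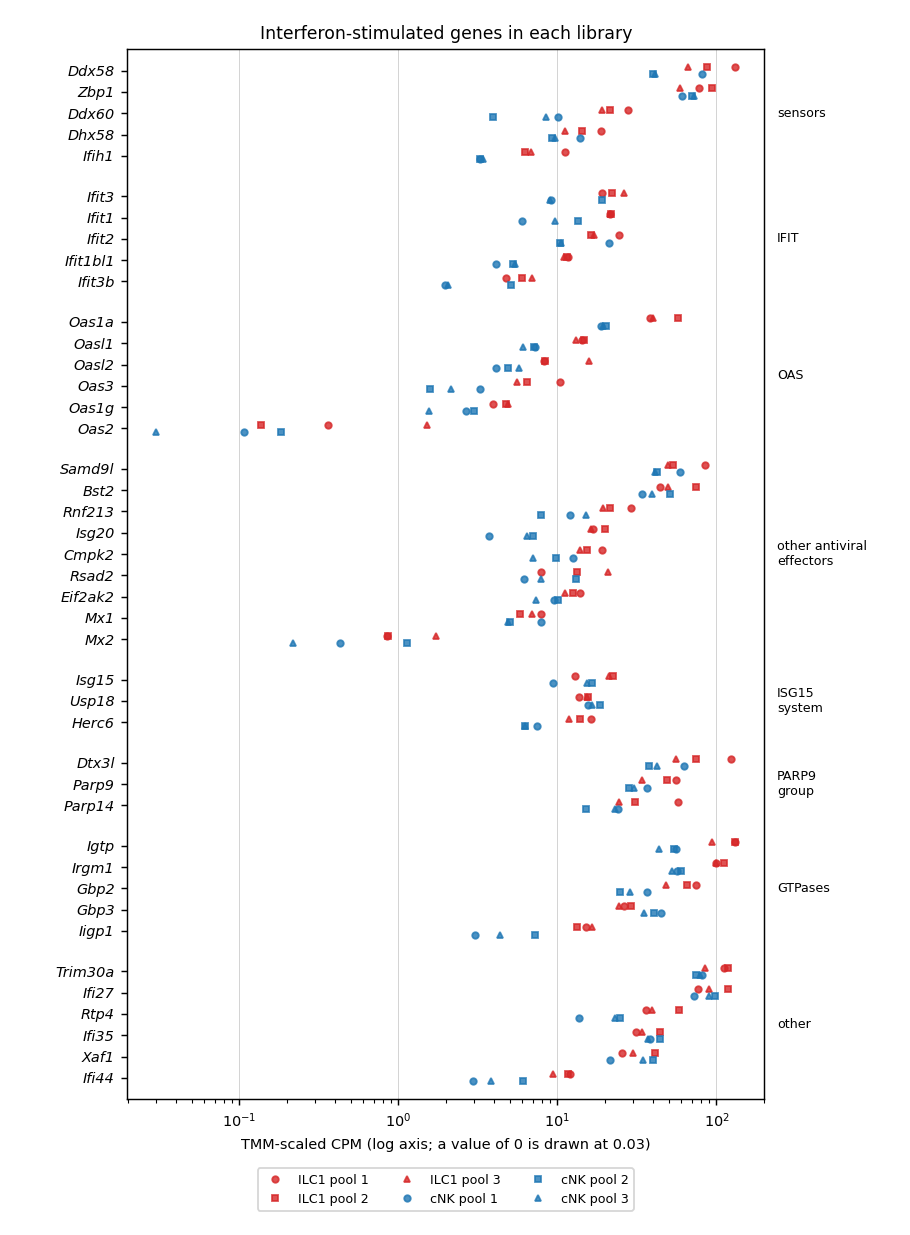
TMM-scaled CPM (log axis) of each of the 42 genes in the 3 ILC1 pools (red) and the 3 cNK pools (blue), 1 symbol per library, grouped by role. For 22 of the 41 tested genes all red symbols lie to the right of all blue ones. Gbp3 and Usp18 show the reverse, Usp18 by less than a single count.

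**Figure D2:**
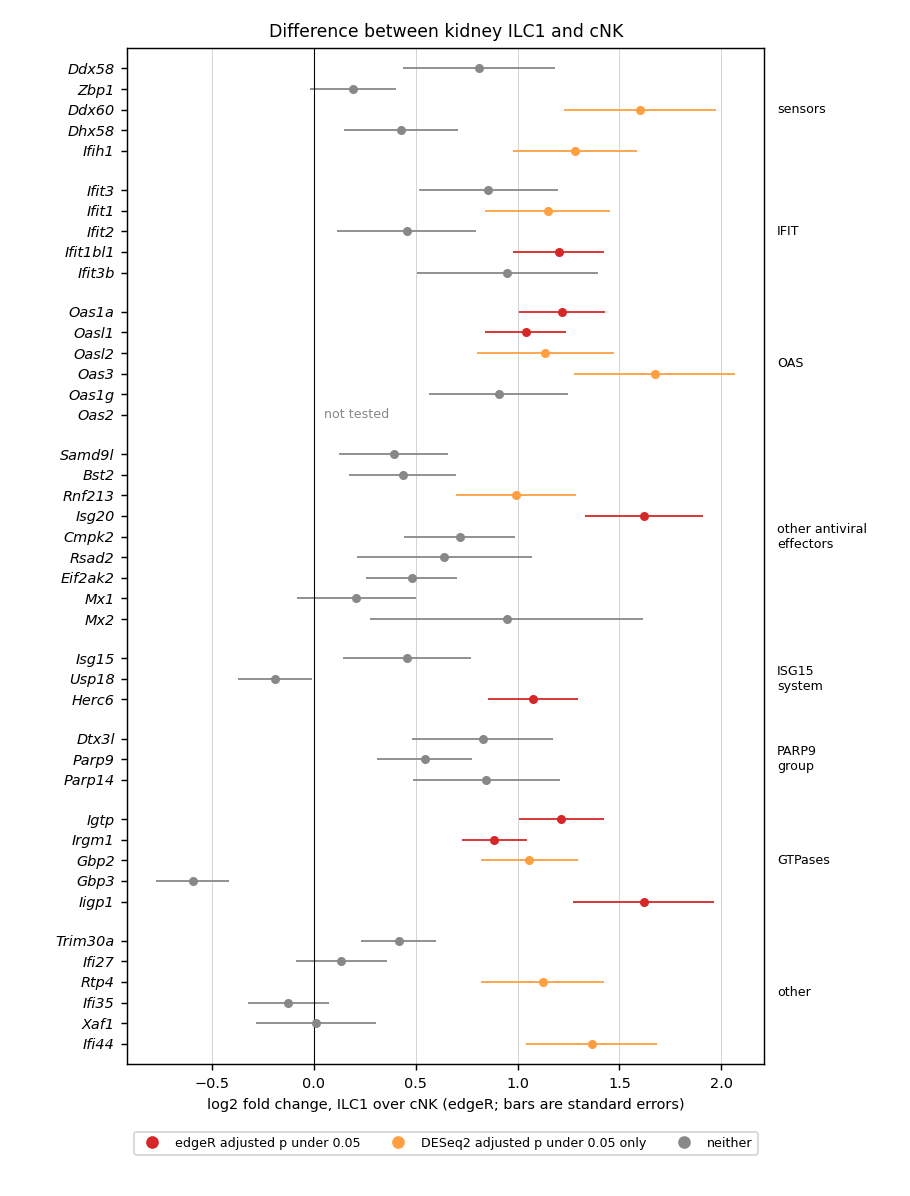
Log2 fold change of ILC1 over cNK from edgeR for each gene, with its standard error as the bar and n = 3 libraries per population. The 8 genes called by edgeR are red, the 9 called by DESeq2 alone are orange, and Gbp3 lies furthest to the left at -0.59.

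Among the 5 sensors, all 5 log2 fold changes were positive (0.19 to 1.60), against 50.8% of all genes. Of these, edgeR called 0 and DESeq2 called 2, Ddx60 and Ifih1, against 4.07% and 5.73% of all genes. Ddx58, which encodes RIG-I and detects viral RNA with a 5′ triphosphate, was not among them. It stood at 131, 86.8 and 66.1 CPM in the 3 ILC1 pools in order and at 81.2, 39.9 and 40.8 CPM in the 3 cNK pools. ILC1 pools 2 and 3 were thus on either side of cNK pool 1, and edgeR did not call the gene (log2 fold change 0.81 ± 0.37 SE, adjusted p = 0.320). Ifih1, which encodes MDA5, a sensor of long double-stranded RNA, was at 11.1, 6.22 and 6.84 CPM in ILC1 against 3.26, 3.27 and 3.38 CPM in cNK. The cNK pools were nearly equal and all ILC1 pools lay above them (log2 fold change 1.28 ± 0.30, edgeR adjusted p = 0.0616, DESeq2 adjusted p = 0.00520).

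Ddx60, a helicase tied to RIG-I signalling, stood at 27.9, 21.5 and 19.0 CPM in ILC1 against 10.1, 3.90 and 8.46 CPM in cNK. Every ILC1 pool was above every cNK pool by a wide margin (log2 fold change 1.60 ± 0.37, edgeR adjusted p = 0.0589, DESeq2 adjusted p = 0.00196), and edgeR called it without ILC1 pool 3 (adjusted p = 0.0464). Dhx58, which encodes LGP2, a regulator of both RNA sensors, and Zbp1, a sensor of Z-form nucleic acid, overlapped between the populations, with log2 fold changes of 0.43 and 0.19. Zbp1 was well expressed in both, at a mean of 76.97 ± 17.3 CPM (SD, n = 3) in ILC1 and 67.3 ± 6.02 CPM in cNK.

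The 5 IFIT genes encode proteins that bind viral RNA lacking the host cap modification and block its translation. They lie together on chromosome 19 (GRCm38, 34550694 to 34650009). All 5 log2 fold changes were positive (0.46 to 1.20), and Ifit1bl1 was called by edgeR, against 50.8% and 4.07% of all genes. Ifit1bl1 stood at 11.6, 11.4 and 11.02 CPM in ILC1 against 4.12, 5.27 and 5.42 CPM in cNK, a 2.30-fold difference (log2 fold change 1.20 ± 0.22, edgeR adjusted p = 0.0240). The pools of ILC1 were tight and lay far above those of cNK. Leaving out 1 library kept the call only without ILC1 pool 3 (adjusted p = 0.0416) and otherwise took it to at most 0.112.

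Ifit1 stood at 21.5, 21.7 and 21.4 CPM in ILC1 against 5.95, 13.5 and 9.63 CPM in cNK. Its ILC1 pools were nearly identical while the cNK pools differed among themselves, and it was called by DESeq2 (adjusted p = 0.0208) but not by edgeR (adjusted p = 0.0904). Ifit3 stood at 19.0, 22.0 and 26.1 CPM in ILC1 against 9.06, 19.02 and 8.94 CPM in cNK. Here cNK pool 2 reached the lowest ILC1 pool, and neither tool called the gene (edgeR adjusted p = 0.248).

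Ifit3b followed Ifit3 from pool to pool at a lower level, with 4.74, 6.01 and 6.88 CPM in ILC1 against 1.97, 5.13 and 2.04 CPM in cNK. In cNK pool 2 both genes were high. They are near-identical copies, which also shows in their promoters, where the stretch around the ISRE core matches is the same in all 68 bases:
Ifit3 (chr19:34583361-34583428, plus strand): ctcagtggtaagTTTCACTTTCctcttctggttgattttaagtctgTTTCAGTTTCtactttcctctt
Ifit3b (chr19:34607757-34607824, plus strand): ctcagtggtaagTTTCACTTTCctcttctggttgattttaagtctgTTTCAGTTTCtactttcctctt

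How reads that match both copies were counted is not given in the sources used here, so the split between Ifit3 and Ifit3b is uncertain. Ifit2, the other member of the group, stood at 24.2, 16.3 and 16.96 CPM in ILC1 against 21.0, 10.4 and 10.5 CPM in cNK. The populations overlapped in Ifit2, whose pool 1 was the highest on both sides (edgeR adjusted p = 0.529).

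The OAS genes encode enzymes that sense double-stranded RNA and make oligoadenylate as a messenger, together with the OAS-like genes, whose mouse products differ in that activity. Of the 5 tested, 2 were higher in ILC1 by edgeR and 4 by DESeq2, against 4.07% and 5.73% of all genes. In all 5 the ILC1 pools lay above the cNK pools, against 15% of all genes. Oas1a stood at 38.5, 57.2 and 40.1 CPM in ILC1 against 18.7, 20.2 and 19.3 CPM in cNK, a 2.33-fold difference (log2 fold change 1.22 ± 0.21, edgeR adjusted p = 0.0187). The cNK pools were even and ILC1 pool 2 was the highest. The call held without any 1 ILC1 pool, and was lost when any 1 cNK pool was left out (highest adjusted p 0.118).

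Oasl1, known in mice as a brake on translation of Irf7, stood at 14.3, 14.7 and 13.1 CPM in ILC1 against 7.24, 7.08 and 6.07 CPM in cNK. Both populations were tight, with a 2.06-fold difference (log2 fold change 1.04 ± 0.20, edgeR adjusted p = 0.0269), and the call was kept only without ILC1 pool 3 (adjusted p = 0.0440, highest adjusted p without 1 library 0.163). Oas3 had 10.4, 6.42 and 5.54 CPM in ILC1 against 3.26, 1.59 and 2.13 CPM in cNK. Its fold was the largest among the 41 genes at 3.19 (log2 fold change 1.67 ± 0.40), with an edgeR adjusted p of 0.0609 and a DESeq2 adjusted p of 0.00239, and edgeR called it without ILC1 pool 3 (adjusted p = 0.0411).

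Oasl2 stood at 8.19, 8.30 and 15.8 CPM in ILC1 against 4.08, 4.86 and 5.73 CPM in cNK. ILC1 pool 3 stood apart from the other 2 ILC1 pools, and the gene was called by DESeq2 alone (adjusted p = 0.0439, edgeR adjusted p = 0.121). Oas1g, a close relative of Oas1a with which it can share reads, was low, at 4.51 ± 0.505 CPM in ILC1 against 2.40 ± 0.749 CPM in cNK. Oas2 was the lowest of the 42 genes. It had 9, 4 and 42 counts in ILC1 pools 1 to 3 and 3, 4 and 0 counts in cNK pools 1 to 3. Most of its counts came from ILC1 pool 3, the library in which the myeloid marker list was highest.

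The other antiviral effectors act on entry, replication or release of viruses. Of 9 tested, 1 was higher in ILC1 by edgeR and 2 by DESeq2, against 4.07% and 5.73% of all genes. All 9 log2 fold changes were positive (0.21 to 1.62), against 50.8% of all genes. Isg20, an exonuclease that degrades RNA, stood at 16.7, 19.9 and 16.3 CPM in ILC1 against 3.73, 7.04 and 6.46 CPM in cNK, a 3.07-fold difference (log2 fold change 1.62 ± 0.29, edgeR adjusted p = 0.0208). The lowest ILC1 pool was above the highest cNK pool by more than the range within either population. It was the gene that kept its call most often, in 4 of the 6 fits that leave out 1 library, losing it without ILC1 pool 2 (adjusted p = 0.0819) and without cNK pool 3 (0.0934).

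Rnf213, a very large ubiquitin ligase with antimicrobial activity, stood at 28.8, 21.5 and 19.3 CPM in ILC1 against 12.1, 7.85 and 15.01 CPM in cNK. All ILC1 pools were above all cNK pools (log2 fold change 0.99 ± 0.29, edgeR adjusted p = 0.121, DESeq2 adjusted p = 0.0449). An antisense transcript shares 8.74% of its exon bases, and without stated use of strand their reads cannot be told apart. Samd9l, a restriction factor of poxviruses, stood at 84.2, 53.2 and 49.4 CPM in ILC1 against 58.7, 42.5 and 41.0 CPM in cNK, with pool 1 highest and the populations overlapping (edgeR adjusted p = 0.494).

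The best-known effectors did not pass either test. Mx1, whose intact product is a GTPase against influenza viruses, had 7.91, 5.81 and 6.95 CPM in ILC1 against 7.92, 5.04 and 4.90 CPM in cNK. The populations overlapped (log2 fold change 0.21 ± 0.29). Whether the Mx1 transcript of this strain encodes an active protein was not examined. Mx2, a relative of Mx1, was near the limit of detection at 1.14 ± 0.508 and 0.594 ± 0.481 CPM. The annotation lists Mx2 as a polymorphic pseudogene. Rsad2, which encodes viperin, ranged from 7.83 CPM in ILC1 pool 1 to 20.9 CPM in ILC1 pool 3 and from 6.16 to 13.0 CPM in cNK. Its spread among ILC1 pools was larger than the difference between populations (log2 fold change 0.64 ± 0.43). Its neighbour Cmpk2, a nucleotide kinase on the opposite strand of chromosome 12, did not share that spread, at 19.0, 15.3 and 13.9 CPM in ILC1 against 12.5, 9.85 and 6.98 CPM in cNK, with no overlap (edgeR adjusted p = 0.221).

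Bst2, or tetherin, which holds budding virions at the cell surface, was abundant in both populations, at 55.9 ± 16.1 CPM in ILC1 against 41.3 ± 8.65 CPM in cNK (edgeR adjusted p = 0.442). Eif2ak2, which encodes the translation-blocking kinase PKR, stood at 12.5 ± 1.33 and 8.98 ± 1.48 CPM. Its ILC1 pools lay above its cNK pools without a call (log2 fold change 0.48 ± 0.22).

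Isg15 encodes a ubiquitin-like protein that is attached to other proteins, Herc6 the ligase that attaches it in mice, and Usp18 the protease that removes it and also damps signalling from the type I receptor. Herc6 stood at 16.1, 13.8 and 11.9 CPM in ILC1 against 7.42, 6.22 and 6.20 CPM in cNK, a 2.11-fold difference (log2 fold change 1.08 ± 0.22, edgeR adjusted p = 0.0351). It was called only without ILC1 pool 3 when 1 library was left out (adjusted p = 0.0370, highest 0.188), and it shares 13.66% of its exon bases with another transcript on the same strand.

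Isg15 itself stood at 12.8, 22.5 and 21.2 CPM in ILC1 against 9.35, 16.5 and 15.4 CPM in cNK. Pool 1 was the lowest on both sides, the populations overlapped, and neither tool called it (log2 fold change 0.46 ± 0.31, edgeR adjusted p = 0.495). Usp18 was at 13.6, 15.5 and 15.4 CPM in ILC1 against 15.5, 18.6 and 16.6 CPM in cNK. The nearest libraries of Usp18, ILC1 pool 2 (15.470 CPM) and cNK pool 1 (15.475 CPM), differed by less than a single count. The populations were thus all but touching, and the gene was not called (log2 fold change -0.19 ± 0.18, edgeR adjusted p = 0.621).

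Dtx3l and Parp9 form a complex of a ubiquitin ligase and an ADP-ribosyltransferase that enhances interferon signalling, and Parp14 is a related transferase. None of the 3 was called by edgeR or DESeq2. At an unadjusted edgeR p under 0.05, 1 was higher in ILC1, against 11.4% of all genes. Dtx3l stood at 124, 73.9 and 55.7 CPM in ILC1 against 62.8, 37.6 and 42.5 CPM in cNK. Pool 1 was the highest on both sides, and ILC1 pool 3 fell below cNK pool 1 (log2 fold change 0.83 ± 0.35, edgeR adjusted p = 0.272). Parp14 followed the same order in ILC1, at 57.1, 30.7 and 24.5 CPM, against 24.1, 15.2 and 23.1 CPM in cNK. Dtx3l and Parp9 overlap head to head on chromosome 16 in 458 exon bases, so that some of their reads cannot be assigned.

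The 5 interferon-inducible GTPases are best known as targets of interferon gamma that coat and rupture vacuoles of intracellular microbes. Of these, 3 were higher in ILC1 by edgeR and 4 by DESeq2, against 4.07% and 5.73% of all genes, and Gbp3 went the other way without a call. Igtp, also called Irgm3 (chromosome 11, 58199556 to 58207591), stood at 132, 130.4 and 93.8 CPM in ILC1 against 56.0, 54.0 and 43.3 CPM in cNK, a 2.32-fold difference (log2 fold change 1.21 ± 0.21, edgeR adjusted p = 0.0186). The pools were well apart, yet the call was kept only without ILC1 pool 3 (adjusted p = 0.0139) or cNK pool 1 when 1 library was left out (highest adjusted p 0.123). Igtp shares 8.01% of its exon bases with its neighbour Irgm2.

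Irgm1, a regulator of the other GTPases of its family, had 99.0, 112 and 99.6 CPM in ILC1 against 56.1, 59.5 and 52.7 CPM in cNK. All ILC1 pools lay far above the cNK pools, and a 1.85-fold difference was called (log2 fold change 0.89 ± 0.16, edgeR adjusted p = 0.0209, 0.0419 to 0.155 without 1 library). Iigp1, an effector of the same family, stood at 15.2, 13.4 and 16.4 CPM in ILC1 against 3.04, 7.26 and 4.34 CPM in cNK. It differed 3.07-fold (log2 fold change 1.62 ± 0.34, edgeR adjusted p = 0.0417) and was called only without cNK pool 2 (adjusted p = 0.0253, highest 0.196 without 1 library), and not with upper-quartile factors (0.0747) or DESeq2 size factors in edgeR (0.0515).

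The guanylate-binding proteins Gbp2 and Gbp3 are neighbours on chromosome 3 and went opposite ways. Gbp2 stood at 74.1, 65.0 and 48.4 CPM in ILC1 against 36.7, 24.7 and 28.6 CPM in cNK, with a log2 fold change of 1.06 ± 0.24. It lay at the threshold in edgeR (adjusted p = 0.0506) and was called by DESeq2 (adjusted p = 0.00501). Gbp3 stood at 26.1, 29.0 and 24.6 CPM in ILC1 against 45.0, 40.2 and 34.9 CPM in cNK. All cNK pools of Gbp3 were above all ILC1 pools (log2 fold change -0.59 ± 0.18, edgeR adjusted p = 0.129, DESeq2 adjusted p = 0.0557), and it was the 1 gene with an unadjusted edgeR p under 0.05 toward cNK.

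The 6 remaining genes have products with mixed or less settled roles. Of these, edgeR called 0 and DESeq2 2 higher in ILC1, against 4.07% and 5.73% of all genes. Ifi44 stood at 11.9, 11.6 and 9.40 CPM in ILC1 against 2.94, 6.04 and 3.82 CPM in cNK (log2 fold change 1.36 ± 0.32, edgeR adjusted p = 0.0602, DESeq2 adjusted p = 0.00377). All of its ILC1 pools exceeded all cNK pools, and edgeR called it without cNK pool 2 (adjusted p = 0.0460). Rtp4, which encodes a chaperone of receptors, had 35.8, 58.2 and 39.2 CPM in ILC1 against 13.6, 24.6 and 23.0 CPM in cNK, again without overlap (log2 fold change 1.12 ± 0.30, edgeR adjusted p = 0.0916, DESeq2 adjusted p = 0.0200).

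Trim30a, a ring-finger protein that restrains inflammatory signalling in mice, stood at 111, 118 and 84.6 CPM in ILC1 against 81.2, 74.8 and 78.9 CPM in cNK, without overlap but by a small margin (log2 fold change 0.42 ± 0.18, edgeR adjusted p = 0.300). Ifi27, Ifi35 and Xaf1 lay close to equal, with log2 fold changes of 0.14, -0.13 and 0.011, and the sign of Xaf1 turned with upper-quartile factors, DESeq2 size factors and DESeq2. Usp18, Ifi35, Xaf1, Ifi27, Zbp1 and Mx1 all had log2 fold changes between -0.19 and 0.21.

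Per length of exon, the order of the genes was much the same in both populations. Ifi27, Bst2 and Igtp were the 3 highest in ILC1, at 64.8 ± 14.8, 61.9 ± 17.8 and 58.7 ± 10.6 CPM per kilobase, and also in cNK, at 59.0 ± 9.005, 45.7 ± 9.58 and 25.3 ± 3.38 CPM per kilobase. Ifi27 and Bst2 differed by less than either SD in ILC1, and by more than both SDs in cNK. At the low end were Oas2 and Mx2, with 0.151 ± 0.166 and 0.316 ± 0.140 CPM per kilobase in ILC1. The RNA sensor Ddx58 was well above Ifih1 per length, at 13.4 ± 4.72 against 0.985 ± 0.324 CPM per kilobase in ILC1 and 7.66 ± 3.34 against 0.405 ± 0.00850 in cNK.

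The pools of a population did not rank alike across the genes. ILC1 pool 1 was the highest ILC1 library for 19 of the 42 genes, pool 2 for 15 and pool 3 for 8. The 19 genes highest in pool 1 include Dtx3l, Parp14, Ddx58, Ddx60 and Rnf213 and had a median exon length of 5427 bases. The 15 highest in pool 2, among them Isg15, Bst2, Ifi27 and Oas1a, had a median of 2608 bases. Those highest in pool 3 were Ifit3, Ifit3b, Oas1g, Oas2, Oasl2, Mx2, Rsad2 and Iigp1.

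The log2 ratio of ILC1 pool 1 to the mean of pools 2 and 3 had a Spearman correlation of 0.569 with exon length over the 42 genes. The same ratio in cNK gave 0.422. These are correlations across genes of the same libraries, given as a description. Over 15653 tested genes with counts in every library the values were 0.352 and 0.303, so the relation was not limited to interferon-stimulated genes. The log2 fold change between populations had a correlation of 0.222 with exon length over the 41 genes.

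**Figure D3:**
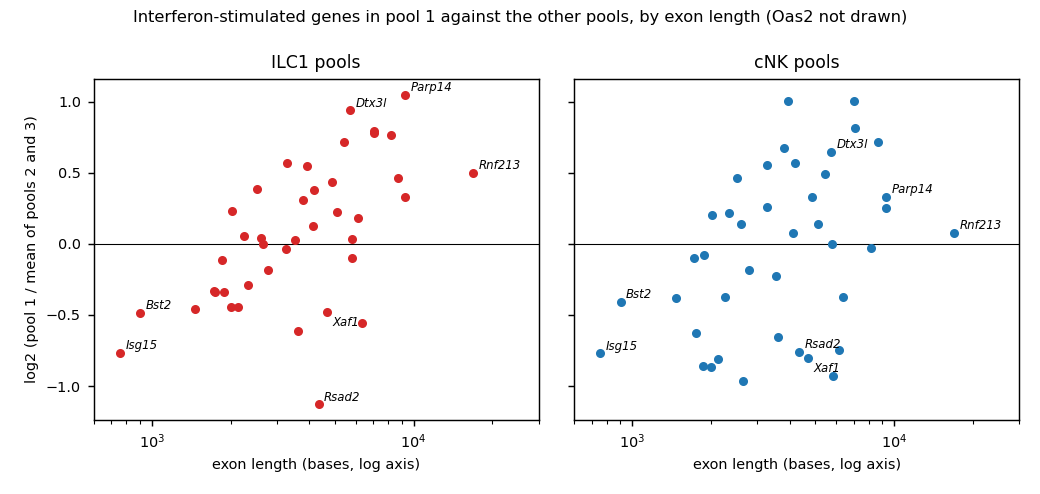
Log2 ratio of pool 1 to the mean of pools 2 and 3 in ILC1 (left) and cNK (right) against exon length (log axis), 1 point per gene, without Oas2. Longer genes such as Parp14 and Dtx3l lie above 0 and short ones such as Isg15 and Bst2 below it, with Spearman correlations of 0.569 and 0.422 over the 42 genes, Oas2 included.

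Upstream of these genes, the interferon signalling list of 20 genes had 2 called higher in ILC1 by edgeR, against 4.07% of all genes, and 0 in cNK, against 1.69%. There were 8 and 0 at an unadjusted edgeR p under 0.05, against 11.4% and 6.63% of all genes, and 3 and 0 by DESeq2, against 5.73% and 3.37%, with a median log2 fold change of 0.33. Ifnar2, the signal-bearing chain of the type I interferon receptor, was higher in ILC1, at 148, 139 and 109 CPM against 70.9, 59.0 and 66.4 CPM in cNK (log2 fold change 1.01 ± 0.19, edgeR adjusted p = 0.0240). Its partner Ifnar1 overlapped between the populations, at 110.1 ± 34.04 CPM in ILC1 against 92.8 ± 27.1 CPM in cNK. Socs1, a feedback inhibitor of the Jak kinases, was higher in ILC1, at 65.1, 74.0 and 73.5 CPM against 35.6, 32.7 and 44.9 CPM (log2 fold change 0.91 ± 0.19, edgeR adjusted p = 0.0350).

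The call of Ifnar2 was kept only without ILC1 pool 3 (adjusted p = 0.0225, highest 0.146 without 1 library), and that of Socs1 in 0 of the 6 such fits (0.0640 to 0.144). Jak2, a kinase bound to the interferon gamma receptor, was called by DESeq2 alone. It had 249, 121 and 101 CPM in ILC1 against 62.6, 32.0 and 40.6 CPM in cNK, without overlap and with the largest fold of the list (log2 fold change 1.80 ± 0.42, edgeR adjusted p = 0.0588, DESeq2 adjusted p = 0.00110). Stat2 and Irf9, parts of the type I transcription complex, did not pass in edgeR or DESeq2. Stat2 averaged 33.5 ± 14.3 CPM (SD, n = 3) in ILC1 against 15.6 ± 6.75 CPM in cNK, a 2.15-fold difference (edgeR adjusted p = 0.210). Irf9 averaged 90.7 ± 11.8 CPM in ILC1 against 60.1 ± 9.14 CPM in cNK, with a log2 fold change of 0.59 ± 0.19 (edgeR adjusted p = 0.154). Irf7, the factor that amplifies type I interferon, averaged 88.9 ± 1.91 CPM in ILC1 against 93.4 ± 10.1 CPM in cNK and was not called.

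Of 21 interferon genes listed, 4 were in the table and 1, Ifng, passed the filter. Ifng stood at 133, 247 and 199.8 CPM in ILC1 against 132, 182 and 223 CPM in cNK. The populations overlapped widely (log2 fold change 0.11 ± 0.30, edgeR adjusted p = 0.862). Ifnb1, the gene of interferon beta, had 0, 1 and 4 counts in ILC1 and 3, 0 and 2 in cNK.

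Other interferon-inducible GTPases form a list of their own. Of 12 tested, 6 were higher in ILC1 by edgeR and 6 by DESeq2, against 4.07% and 5.73% of all genes. By either tool 0 were higher in cNK, against 1.69% and 3.37%. All 12 log2 fold changes were positive, against 50.8% of all genes, and the median was 1.41, against 0.0096. Gbp6 stood at 43.1, 37.6 and 28.4 CPM in ILC1 against 7.85, 6.90 and 8.81 CPM in cNK (log2 fold change 2.21 ± 0.23, edgeR adjusted p = 0.00290). Tgtp1 had 162, 184.7 and 140.4 CPM in ILC1 against 31.3, 43.4 and 40.5 CPM in cNK (2.08 ± 0.21, adjusted p = 0.00258). Tgtp2 was at 252, 309 and 224 CPM in ILC1 against 66.0, 83.6 and 74.9 CPM in cNK (1.81 ± 0.20, adjusted p = 0.00384). These 3 genes kept their calls without any 1 of the 6 libraries (highest adjusted p 0.0407), which none of the 42 genes did.

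Gbp10 was the fourth by adjusted p (log2 fold change 1.94 ± 0.32, edgeR adjusted p = 0.0160), and Gbp9 and Irgm2 were the other 2 called. Tgtp1 and Tgtp2 are near-identical copies, as are several Gbp genes, so single values are uncertain. The ISRE core and TTCNNNGAA were both found in 5 of the 6 promoters at hand for this list.

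A further list held genes that work beside the sensors. Its 16 tested genes had a median log2 fold change of 0.38, against 0.0096 over all genes. At an unadjusted edgeR p under 0.05, 5 were higher in ILC1 and 0 in cNK, against 11.4% and 6.63% of all genes. DESeq2 called 3 and 0, against 5.73% and 3.37%. By edgeR 2 were called higher in ILC1 and 0 in cNK, against 4.07% and 1.69%. The 2 were the endosomal RNA receptors Tlr3, at 15.3, 8.61 and 17.6 CPM in ILC1 against 1.18, 3.41 and 1.87 CPM in cNK (log2 fold change 2.69 ± 0.48, edgeR adjusted p = 0.0211), and Tlr7, at 5.42, 1.67 and 4.72 CPM against 0.609, 0.0908 and 0.260 CPM (3.57 ± 0.76, adjusted p = 0.0425). ILC1 pool 2 was the lowest ILC1 library for both. The summed myeloid markers were also lowest there, whereas they were highest in pool 3 and Tlr7 was highest in pool 1. With the share of myeloid markers as a covariate, 0 genes of the list were called. In that fit calls over all genes fell from 657 to 158 higher in ILC1 and from 273 to 240 higher in cNK. The fit cannot fully separate the share from population.

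Without 1 library, the highest adjusted p was 0.122 for Tlr3 and 0.201 for Tlr7. Sting1, the adaptor of cytosolic DNA sensing, was called by DESeq2 alone (log2 fold change 0.67 ± 0.18, edgeR adjusted p = 0.0975).

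**Figure D4:**
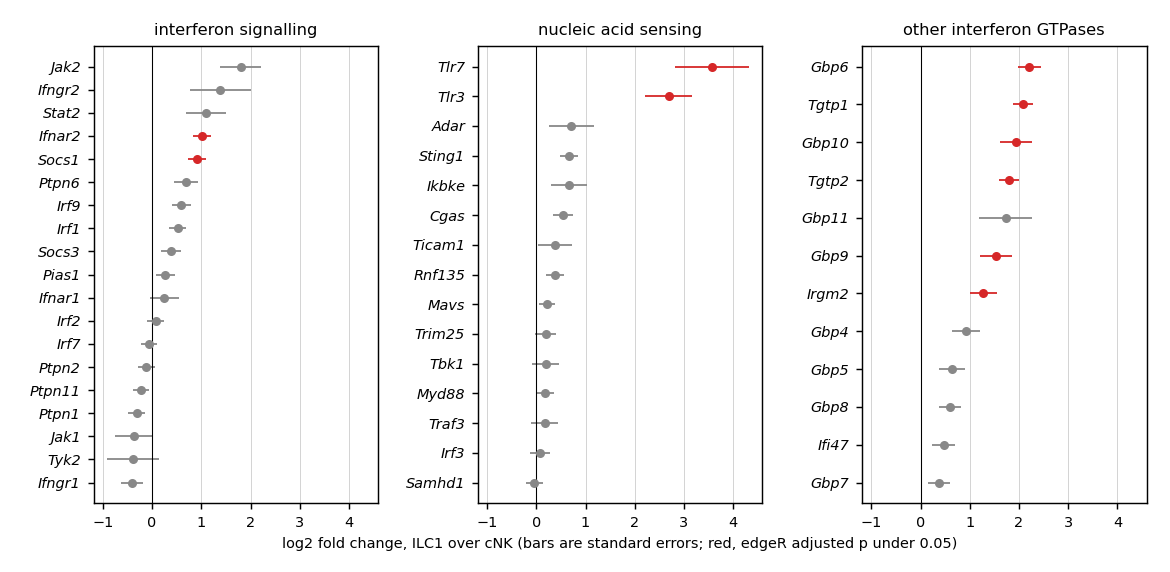
Log2 fold change of ILC1 over cNK (edgeR) with its standard error for genes of 3 related lists, n = 3 libraries per population, with genes past an edgeR adjusted p of 0.05 in red. All 12 other interferon GTPases lie right of 0, and Ifnar2, Socs1, Tlr3 and Tlr7 are the genes called in the other 2 lists.

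The pools in which myeloid markers and the interferon-stimulated genes were highest can be set side by side. The share of counts from the myeloid list was 0.735% in ILC1 pool 1, 0.680% in pool 2 and 1.21% in pool 3, and of its 25 genes 19 were highest in ILC1 pool 3, 5 in pool 1 and 1 in pool 2. Igtp, Isg20, Irgm1, Oas1a, Oasl1, Herc6 and Ifit1bl1 were not highest in ILC1 pool 3, whereas Iigp1, Oasl2, Rsad2, Oas2, Mx2, Oas1g, Ifit3 and Ifit3b were. ILC1 pool 3 and cNK pool 2 had the highest kidney epithelial shares (0.472 and 0.719%) and mitochondrial shares (6.53 and 12.7%) of their populations. Without both, the myeloid shares still did not overlap, at 0.735 and 0.680% in ILC1 against 0.353 and 0.331% in cNK. A fit without both therefore does not separate the myeloid share from population. The median log2 fold change of the 41 genes in it was 0.89. In that fit 5 of them were called higher in ILC1, against 481 of all 16168 genes tested.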

How the data were processed

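RNA sequencing counts of 3 ILC1 and 3 cNK libraries were analysed. The deposited values are the authors' raw counts for each gene. STAR 2.6.1, Trimmomatic 0.38, DESeq2 1.30.0, DESeq, R 4.03 and the build GRCm38 appear in the submitters' processing notes. The counting program, annotation, strand setting and treatment of multimapping reads were not given in the sources used here. The 2 deposited mean columns and 1 row without an identifier were not used.

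Counts were tested over the whole table with edgeR 4.0.16 in R 4.3.3 (TMM, filterByExpr, robust quasi-likelihood fit on population, Benjamini-Hochberg adjustment at 0.05). Standard errors (SE) come from the F statistic. Alternatives were other scalings, DESeq2 1.42.0, limma-voom (limma 3.58.1), other filters, a block, covariates and left-out libraries. The fit was tested on simulated data. Gene positions and exon lengths are from GENCODE M21 on GRCm38 and promoters from RefSeq on GRCm38.p6. Motifs were searched by letters. Among the 42 genes, values per library are given for those called by edgeR or DESeq2 and for the one with the highest mean CPM over all 6 libraries in each role, and other genes were named after their values were seen. The genes and lists were chosen with earlier results of these data known. Counting error only sets a floor on precision, and 3 libraries per population limit it further. Values of some genes of the related lists are not reported here, although the lists' counts and medians include them.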

Additional observations from a re-analysis of the deposited data

How the results depend on the processing

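The count of the 42 genes called higher in ILC1 was 8 in edgeR with TMM. It was 17 with the DESeq2 Wald test, 17 with pool number as a replicate block, 0 with the myeloid marker share as a covariate, 5 with the mitochondrial share, 5 without both ILC1 pool 3 and cNK pool 2, and 0 to 10 without 1 library. Over all genes the count higher in ILC1 was 657 in the main fit. It was 1100 with DESeq2, 1107 with the block, 158 and 610 with the myeloid and mitochondrial covariates, 481 without both libraries and 214 to 695 without 1 library. Of the 42 genes, 1 was called higher in cNK under the block (Gbp3, edgeR adjusted p = 0.0464). The labels do not say whether pools of the same number share mice, and the samples were not treated as paired. Deviations of same-numbered pools correlated at 0.526, -0.127 and 0.0588 for pools 1 to 3, and not every sample correlated best with its own number (ILC1 pool 3 with cNK pool 2, 0.591). The median log2 fold change was 0.77 with upper-quartile factors, 0.98 with the myeloid covariate and 0.70 to 0.93 without 1 library.

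For interferon signalling the count higher in ILC1, 2 in the main test, was 1 with upper-quartile factors, 6 with the replicate block, 0 and 1 with the myeloid and mitochondrial covariates, 1 without both libraries and 0 to 2 without 1 library. For nucleic acid sensing, also 2, it was 1 with limma-voom, 1 with the block, 0 and 1 with the covariates, 1 without both and 0 to 2 without 1 library. For the other GTPases, 6, it was 3 and 3 with the covariates and 3 to 6 without 1 library. Over all genes, 613 were called higher in ILC1 with upper-quartile factors and 631 with limma-voom, and the counts for the other settings are given above. The causes of these changes were not tested. Fits that leave libraries out also have a smaller sample, and the effect of that was not tested either.

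The sign changed in genes that were not called. Xaf1 was at -0.019 with DESeq2 size factors, -0.086 with upper-quartile factors, -0.012 with DESeq2, -0.0076 at 1 CPM or more in 3 libraries, and from -0.27 to 0.198 without 1 library. Without 1 library Ifi27 ran from -0.054 to 0.278, Ifng from -0.13 to 0.325 and Ifnar1 from -0.032 to 0.457. With the mitochondrial covariate Ifit2 was at -0.018, Mx1 at -0.068 and Ifnar1 at -0.22. With the myeloid covariate Mx2 was at -0.23, Rsad2 at -0.37 and Ifi35 at 0.074.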
